A study of Gallus gallus and Dromaius novaehollandiae and Alligator mississippiensis with 60 samples.

Results

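Growing claw epidermis was set against the epidermis of foot scale placodes in chicken and emu, 2 birds whose lineages parted early in bird evolution. The claw samples were taken during morphogenesis at Hamburger and Hamilton stage 38, a scale of embryo age by outward form. The scale samples were scutate scale placode at stage 37 and reticulate scale placode at stage 39, so the claw lay between the scales in age. The groups were chosen by appendage, stage and layer as labelled, and they hold 11 of the 60 libraries of the series. Chicken gave 2 claw, 2 scutate and 2 reticulate libraries, and emu gave 2 claw, 2 scutate and 1 reticulate library. The labels name neither a strain nor the sex of the embryos, and no group carried an allele or a drug. Incubation was at 37.8 °C for chicken and at 35.5 °C for emu. In every group a 13 h treatment with the protease dispase, 10 mg/mL at 4 °C, freed the epidermis. Each of the 11 libraries has a specimen number of its own. Elsewhere in the series the emu numbers 11 and 16 recur at another stage, so a number need not name 1 embryo. Whether embryos were shared among the 11 libraries is therefore not shown. The other libraries of the series were further stages of these appendages, feathers, chicken dermis and alligator epidermis.

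Skin appendages begin as a placode, a local thickening of the epidermis that signals to the dermis beneath, and take their shape during morphogenesis. A bird's claw is a hard cornified sheath over the last bone of the toe. Scutate scales are broad overlapping plates on the front of the foot, and reticulate scales are small rounded bumps on its underside. The cells of all of these fill with keratins as they harden, and hard bird appendages also use corneous beta proteins, which come from a gene family of many near-identical copies. RNA of a tissue reports the mean of its cells, so fewer cells of a type and less RNA per cell cannot be told apart here. The claw was at morphogenesis and the scales at placode, so appendage and developmental step also cannot be told apart within the 11 libraries.

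The values are TPM, a transcript abundance set against gene length and library total, in 1 table with chicken gene identifiers for every species. The sources used here pair 0 of the 17889 identifiers with a gene symbol. Genes are therefore described by identifier and by their measured pattern, and their functions are not given. Emu columns held a value for 8749 genes. Genes at 1 TPM or more in at least 2 chicken and 2 emu libraries, 6372 in all, were tested. Levels were compared as log2(TPM + 1), on which the change of low genes is understated, with limma and Benjamini-Hochberg adjustment at 0.05. Species was a term of the fit, and the scales had equal weight. Replicates correlated across genes at 0.975 to 0.987. Epidermis markers by name could not be checked without symbols. In place of them, genes 4-fold or more higher in chicken epidermis than dermis in 7 other appendage and stage classes took 3.7% to 7.85% of a library's TPM over genes with an emu value, and the corresponding dermis genes took 0.548% to 3.59%.

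Growing claw differed from the mean of the scale placodes in 3704 of 6372 genes, or 58.1%. Of these, 711 genes were higher in claw (11.2% of those tested) and 2993 lower (47%), by at least 2-fold in 327 and 930. The sign was the same in chicken and emu for 98.7% of the called genes and 71.6% of all genes tested, though a fit with 1 claw term for both birds favours genes on which they go together. The excess of lower genes depended on the scaling, and the median gene itself lay at -0.38 on the log2 scale. After median-of-ratios rescaling within each bird the median was -0.01 and the calls were 1568 higher and 1474 lower (24.6% and 23.1%). After quantile normalization they were 1241 higher and 1604 lower (19.5% and 25.2%). A call of the same direction under all 3 scalings was made for 1989 genes (31.2%), of which 694 were higher in claw (10.9%) and 1295 lower (20.3%). By their values as deposited, these reached 2-fold in 326 and 831 genes. Higher genes of this shared set could be no more than the 711 called as deposited. Its lower genes could be as many as the 1474 called after median-of-ratios rescaling. The excess of lower genes in the shared set thus also depends on the scaling. Among all genes called after median-of-ratios rescaling, 552 higher and 407 lower genes reached 2-fold. After quantile normalization 481 and 394 did. The plot of called genes by direction and scaling shows how far the split moved.

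**Figure D1:**
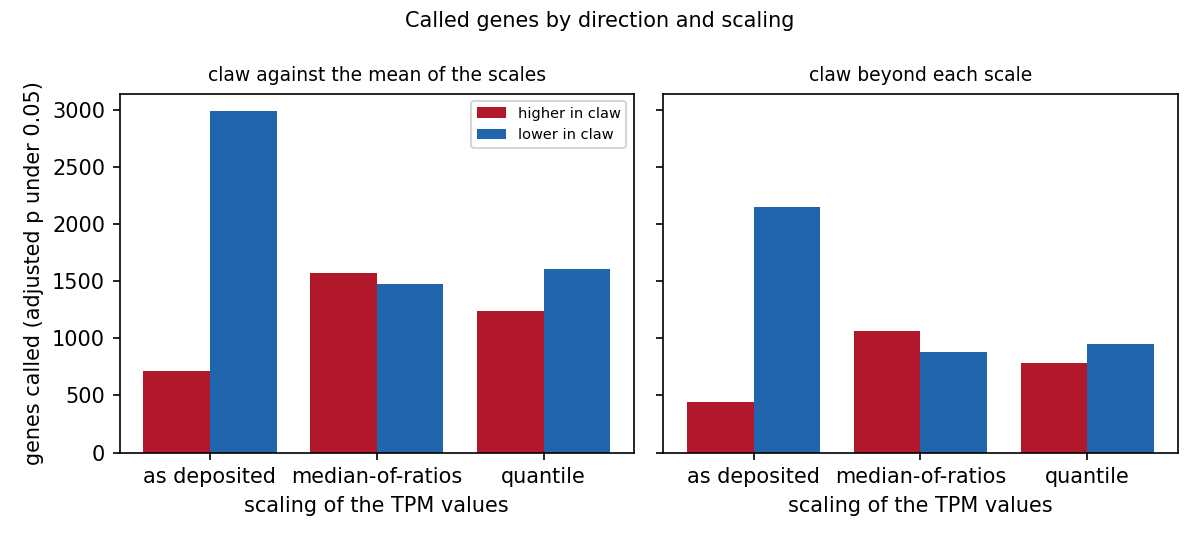
Number of genes called higher (red) or lower (blue) in claw, on the vertical axis, for each scaling of the TPM values on the horizontal axis. The left panel shows claw against the mean of the scales and the right panel claw beyond each scale. As deposited, 711 genes were higher and 2993 lower in the left panel, against 1568 and 1474 after median-of-ratios rescaling.

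The shift of the median came with a change in where the TPM lay. In chicken claw 52.7% and 53% of all TPM fell in genes without an emu value, against 43.4% to 46.1% in the scale libraries. The genes with an emu value accordingly summed to 468729 and 472124 TPM in chicken claw and to 536935 to 566013 TPM in chicken scales. Emu columns have a near-constant total over their 8749 genes, and the median of the genes at 1 TPM or more was still lower in emu claw, at 24.4 and 24.8 TPM against 27.2 to 29.6 TPM. In chicken this median was 18 and 18.7 TPM in claw and 24.2 to 25.8 TPM in scales. Claw libraries also held more very abundant genes, with 158 and 160 genes at 1000 TPM or more in chicken against 136 to 145, and 81 in each emu claw library against 66 to 75. With chicken libraries set to one total over the genes with an emu value, the calls were 910 higher and 2460 lower.

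ENSGALG00000024272 had the largest claw excess among called genes that lay on the same side of each scale in each bird. It stood at 365 and 788 TPM in chicken claw, at 0.253 and 0.643 TPM in chicken scutate and at 2.12 and 1.5 TPM in chicken reticulate placodes. In emu it stood at 2257 and 2082 TPM in claw, 2.26 and 4.67 TPM in scutate and 12.4 TPM in reticulate placode. The claw and scale libraries did not overlap in either bird, and reticulate lay above scutate in both. The log2 difference of claw from the mean of the scales was 8.14 (SE 0.24, limma adjusted p = 9.6e-08). It was 8.07 in chicken and 8.16 in emu, and the difference between the birds did not pass the test (-0.09, SE 0.47, limma adjusted p = 0.91).

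ENSGALG00000004804 was nearly confined to claw among these libraries. Chicken claw held 47.9 and 74.8 TPM of it and emu claw 1118 and 714 TPM. In chicken scales it was listed at 0 in 3 libraries and at 0.0837 TPM in 1 reticulate library, and the 3 emu scale libraries held 0.0517 to 0.159 TPM. No scale library of either bird came near a claw library. The gene reached 1 TPM in claw libraries alone, so it entered the test only through the group where it was high, and its log2(TPM + 1) difference of 7.67 (SE 0.63) depends on the added 1 because of the zeros. With no filter on low values the limma adjusted p was 5.6e-05, in a range of 2.5e-13 to 0.00011 over its alternatives. The difference was 5.90 in chicken and 9.69 in emu, apart by -3.79 (SE 0.35). With all scale libraries under 1 TPM, that gap follows the claw level of each bird. It therefore depends on the undescribed scaling of the emu columns and on the added 1.

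ENSGALG00000010657 was the gene furthest below the scales by the same rule. Its chicken claw libraries held 0.898 and 2.07 TPM, against 251 and 259 TPM in scutate and 433 and 683 TPM in reticulate placodes. The emu claw libraries held 18.1 and 2.33 TPM, against 337 and 347 TPM in scutate and 635 TPM in reticulate placode. All claw libraries lay below all scale libraries, and emu claw replicate 1 lay highest among the claws. The log2 difference was -6.63 (SE 0.45, limma adjusted p = 9.5e-06). In chicken only 1 claw library reached 1 TPM, so there the gene passed the filter only through the scales, where it was high. Its call was kept with no filter on low values.

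ENSGALG00000010898 was close to 0 in claw. It stood at 0.188 and 0.226 TPM in chicken claw and at 0.189 and 0.0655 TPM in emu claw. Chicken scale placodes held 37.8 to 66.6 TPM and emu scale placodes 32.8 to 69.2 TPM, so the claw and scale ranges were far apart in both birds. It reached 1 TPM in scale libraries alone. The log2 difference was -5.53 (SE 0.22), with a limma adjusted p of 4.3e-06 without a filter on low values and 5.1e-17 to 1.6e-05 over its alternatives, at -5.51 in chicken and -5.41 in emu.

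Among genes with an emu value, the most abundant genes of claw were partly genes that scales share. Genes without an emu value were not ranked, and in chicken claw 1 of them, ENSGALG00000024133, averaged 16412 TPM. Of the 6 genes with the highest mean TPM over the claw libraries, birds weighted equally, 3 were slightly lower in claw than in scales, by -0.32, -0.30 and -0.26 on the log2 scale, and 3 were higher. After median-of-ratios rescaling the median gene moves by about the size of the negative values, so the direction of those 3 is not fixed by these data. The gene at rank 1 averaged 17202 TPM in emu claw and 229 TPM in chicken claw. In the scales it averaged 1462 TPM in emu scutate and 1990 TPM in emu reticulate placode, against 3.85 and 110 TPM in chicken. Its log2 difference over both birds was 3.13 (SE 0.66, limma adjusted p = 0.0028). The gene at rank 4 was abundant in claw of both birds, at 4077 TPM in chicken and 3533 TPM in emu. Its means in the scales were 956 and 983 TPM in chicken scutate and reticulate placodes and 424 and 228 TPM in emu, and its log2 difference was 2.70 (SE 0.25, limma adjusted p = 4e-05).

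The age bracket asks whether claw lay outside both scales. A level that only rose or only fell from stage 37 to 39 would put claw at stage 38 between them. Against scutate placode, the younger of the scales, claw differed in 3409 genes (53.5%), 657 higher (10.3%) and 2752 lower (43.2%). Against reticulate placode, the older, it differed in 3029 genes (47.5%), 564 higher (8.85%) and 2465 lower (38.7%). Claw lay beyond both, called against each with the same sign, in 2597 genes (40.8%), 445 higher (6.98%) and 2152 lower (33.8%). The split was 1063 higher and 880 lower after median-of-ratios rescaling (16.7% and 13.8%) and 782 and 954 after quantile normalization (12.3% and 15%). Under all 3 scalings alike it was 1153 genes (18.1%), 430 higher and 723 lower (6.75% and 11.3%). This shared set could hold at most the 445 higher genes as deposited and the 880 lower genes after median-of-ratios rescaling. Its excess of lower genes thus also depends on the scaling. A gene called against both scales with opposite signs occurred 1 time, but the scales differed from each other in 37 genes only, so few genes could be called so. Claw libraries stand in both comparisons, so the counts against each scale are not independent of each other. By group means alone, claw lay outside both scales and on the same side in both birds for 3725 of 6372 genes. These means are of values as deposited, where the median claw difference was -0.49 in chicken and -0.26 in emu, and no rescaled count is given.

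Some genes ranked high against 1 of the scales. ENSGALG00000016584 stood at 514 and 269 TPM in chicken scutate placode, at 33 and 140 TPM in reticulate placode and at 15.8 and 3.01 TPM in claw. In emu the order was the same, at 248 and 258 TPM in scutate placode, 14.9 TPM in reticulate placode and 8.18 and 0.543 TPM in claw. The claw libraries were the lowest in each bird, and the reticulate libraries lay between. The log2 difference of claw was -5.79 from scutate placode (SE 0.68, limma adjusted p = 0.00016) and -2.74 from reticulate placode (SE 0.74, limma adjusted p = 0.013). In emu only 1 claw library reached 1 TPM, so there the gene passed the filter only through the scales, where it was high. The call against scutate placode was kept with no filter on low values.

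ENSGALG00000009641 was among the abundant genes of the scales. Chicken scutate and reticulate placodes held 3298 to 6331 TPM and emu scale placodes 3091 to 3411 TPM. Claw held 183 and 49.9 TPM in chicken and 314 and 26.5 TPM in emu, well below every scale library although its replicates lay several-fold apart. The log2 difference of claw from reticulate placode was -5.55 (SE 0.71, limma adjusted p = 0.00036). In emu alone it was -5.19 and did not pass the test (adjusted p = 0.11).

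**Figure D2:**
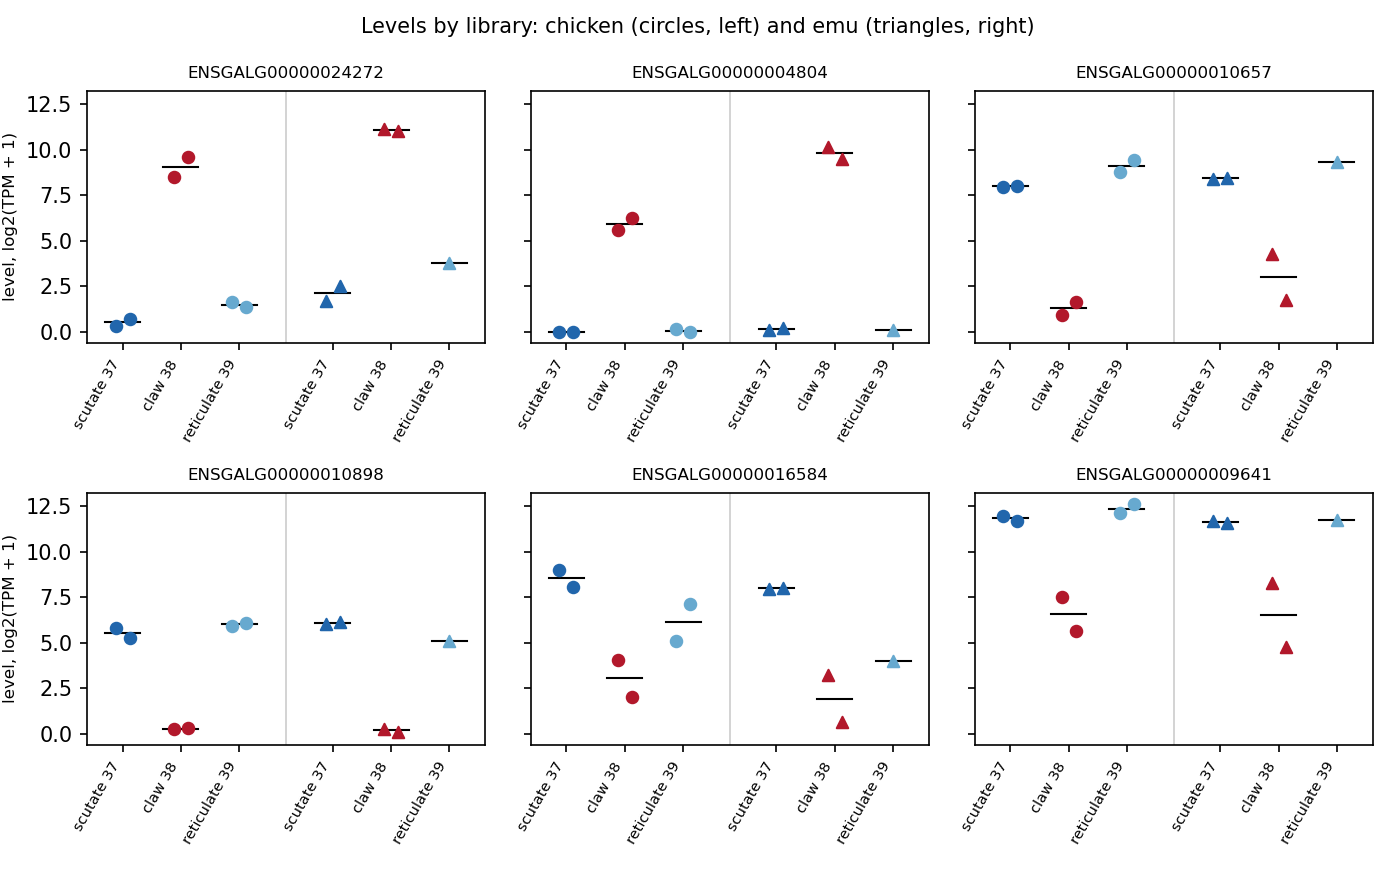
Level of 6 genes in log2(TPM + 1), vertical axis, in scutate placode (stage 37), claw (stage 38) and reticulate placode (stage 39). Circles are chicken libraries, triangles emu libraries and lines group means. The first 2 genes are high in claw in both birds, and the other 4 have their lowest levels there.

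The scales at the ends of the bracket differed from each other in far fewer genes than either did from claw. Reticulate and scutate placodes differed in 37 genes (0.581%), 21 higher (0.33%) and 16 lower (0.251%) in reticulate, and 823 genes had an unadjusted p under 0.05. The median size of the log2 difference was 0.18 between the scales and 0.53 between claw and scales, or 0.18 and 0.42 after median-of-ratios rescaling. The count of 37 was not stable. It ran from 3, without chicken reticulate scale placode replicate 2, to 86, without the emu reticulate library, and a fit with a mean for each bird and appendage gave 585. Age and scale type differ together between these groups, and in emu the scutate libraries came from lane 2 and the reticulate library from lane 1 by their sample descriptions, so these cannot be told apart.

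Claw was placed against both scales in the 37 genes. Of the 21 genes higher in reticulate placode, claw lay nearer reticulate in both birds for 10 and nearer scutate for 9. Of the 16 genes higher in scutate placode, it lay nearer reticulate for 12 and nearer scutate for 3. Over all 6372 genes tested it lay nearer reticulate in both birds for 1874 and nearer scutate for 1576, and the birds were split in 2922. After median-of-ratios rescaling the counts nearer reticulate and nearer scutate became 13 and 8 for the 21 genes and 10 and 3 for the 16 genes. Over all genes they became 1612 and 1848, so which side led there depended on the scaling. Of the 37 genes as deposited, 6 lay within the bracket in both birds, 13 beyond reticulate and 6 beyond scutate. Over all 6372 genes these counts were 134, 1440 and 1201. The counts for the 37 genes use the same scale libraries that called them.

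Among the genes higher in reticulate placode, ENSGALG00000022323 stood at 38.6 and 32.4 TPM in chicken reticulate and 5.96 and 3.25 TPM in chicken scutate placode. Emu held 12.8 TPM in reticulate and 2.48 and 0.446 TPM in scutate placode. Within each bird claw lay above the scale libraries, at 57.6 and 41.1 TPM in chicken and 41 and 29 TPM in emu. The log2 difference of reticulate from scutate was 2.75 (SE 0.34, limma adjusted p = 0.011). Claw differed from scutate placode by 3.59 (SE 0.32, limma adjusted p = 4.2e-05) and from reticulate placode by 0.84 (SE 0.34, limma adjusted p = 0.067). ENSGALG00000010949 had the larger difference between the scales, at 3.43 (SE 0.62, limma adjusted p = 0.048). Its claw level of 52.5 and 48.9 TPM in chicken lay below the reticulate 94.3 and 53.1 TPM and above the scutate 0.66 and 7.36 TPM, and in emu the claw libraries at 22 and 57.2 TPM lay on either side of the reticulate 42.4 TPM. Its call was lost in 8 of the 11 fits that left out 1 library, and that of ENSGALG00000022323 in 2 of them, without either chicken reticulate library (adjusted p up to 0.076).

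Among the genes higher in scutate placode, ENSGALG00000006258 stood at 20.6 and 11.5 TPM in chicken scutate and 0.53 and 2.35 TPM in chicken reticulate placode. Emu held 8.61 and 10.5 TPM in scutate and 0.751 TPM in reticulate placode. Claw was as low as reticulate placode, at 1.49 and 0.75 TPM in chicken and 0.738 and 0.487 TPM in emu. The log2 difference of reticulate from scutate was -2.74 (SE 0.32, limma adjusted p = 0.01), and that of claw from reticulate was -0.10 (SE 0.32, limma adjusted p = 0.81). In emu this gene reached 1 TPM in scutate placode alone, so it passed the filter there only through the group where it was high. The emu claw and reticulate values compared were all under 1 TPM. The call between the scales was kept with no filter on low values. ENSGALG00000017119 fell from scutate to reticulate placode by 2.63 on the log2 scale (SE 0.44, limma adjusted p = 0.034). Chicken claw held 150 and 163 TPM of it, between 299 and 300.1 TPM in scutate and 34.4 and 51.7 TPM in reticulate placode. This call too was lost in 8 of the 11 fits that left out 1 library (adjusted p up to 0.16). In emu the claw libraries, at 71 and 150 TPM, lay on either side of the reticulate 137 TPM and far below the scutate 598 and 574 TPM. The claw difference of this gene in chicken exceeded that in emu by 1.92 (SE 0.40, limma adjusted p = 0.007).

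The birds shared part of the claw difference and differed in part. Fitted separately as deposited, 885 genes were higher in chicken claw and 977 in emu claw, and 395 were in both lists. These were 44.6% of the chicken list, beside 15.3% of all genes called so in emu. They were 40.4% of the emu list, beside 13.9% of all genes called so in chicken. Opposite calls were made for 106 of the 885 genes (12%), with 34.9% of all genes called lower in emu. Lower in claw were 3534 genes in chicken and 2225 in emu, with 1707 in both. That was 48.3% of the chicken list, beside 34.9% of all genes called so in emu. It was 76.7% of the emu list, beside 55.5% of all genes called so in chicken. Of the chicken genes 206 (5.83%) were called higher in emu, as 15.3% of all genes were. After median-of-ratios rescaling 886 higher and 729 lower genes were shared. The higher genes were 48.2% of the chicken list (24% of all genes in emu) and 58% of the emu list (28.9% in chicken). The lower genes were 44.9% of the chicken list (22.4% of all genes in emu) and 51.1% of the emu list (25.5% in chicken). Across the 6372 genes the claw differences of chicken and emu correlated at r = 0.499 and rho = 0.457, as a description over genes, which are not independent. The median gene lay at -0.49 in chicken and -0.26 in emu as deposited.

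**Figure D3:**
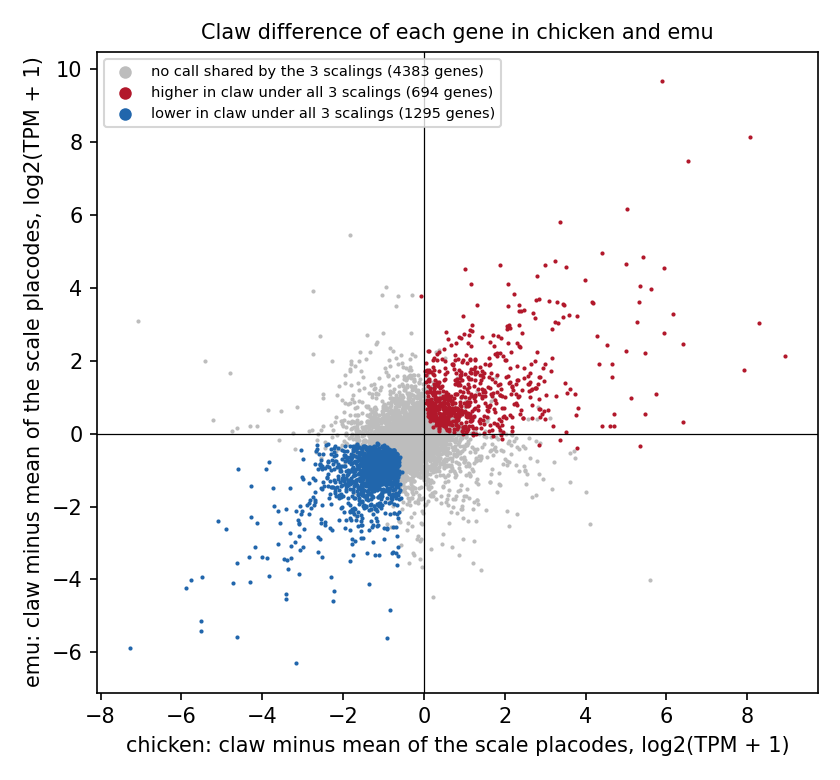
Claw minus the mean of the scale placodes in log2(TPM + 1), chicken on the horizontal and emu on the vertical axis, 1 point per gene. Red marks the 694 genes higher and blue the 1295 genes lower in claw under all 3 scalings, and grey the other 4383. Most red points lie in the upper right and most blue points in the lower left quadrant.

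A contrast of chicken against emu, testing whether the claw difference itself differed, called 2209 genes (34.7%). The signed difference of claw from the scales was higher in chicken for 713 (11.2%) and in emu for 1496 (23.5%). After median-of-ratios rescaling these were 1074 and 962 (16.9% and 15.1%), so the excess on the emu side depended on the scaling. Among called genes with opposite signs in the birds, ENSGALG00000008444 had the largest difference in favour of chicken. Chicken claw held 1183 and 1245 TPM, against 83.8 and 100.6 TPM in scutate and 5.71 and 6.08 TPM in reticulate placodes. Emu claw held 13.7 and 8.33 TPM, against 165 and 158 TPM in scutate and 224 TPM in reticulate placode. The claw was thus the highest group in chicken and the lowest in emu. The claw differences of 5.59 and -4.03 differed by 9.61 (SE 0.24, limma adjusted p = 3e-08).

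ENSGALG00000003506 went the other way. Chicken reticulate placodes held 436 and 1632 TPM and scutate placodes 84.1 and 81.6 TPM, against 1.76 and 0.395 TPM in claw. Emu had little of it in any scale placode, at 0.0532 to 0.199 TPM, and 8.06 and 9.4 TPM in claw. The claw was the lowest group in chicken and the highest in emu, and the birds differed by -10.18 (SE 0.70, limma adjusted p = 5.1e-05). In emu the gene reached 1 TPM in claw alone, and with no filter on low values the limma adjusted p was 8.7e-05, in a range of 1.9e-11 to 0.00048 over its alternatives.

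ENSGALG00000020671 stood at 21.7 and 21.1 TPM in chicken claw and at no more than 0.79 TPM in chicken scales. In emu it was highest in the reticulate library, at 90.6 TPM, while claw (1.51 and 4.21 TPM) overlapped scutate placode (1.64 and 6.34 TPM). The difference between the birds was 6.59 (SE 0.61, limma adjusted p = 9.1e-05) and rests on that 1 reticulate library for its emu side. In chicken the gene reached 1 TPM in claw alone, and with no filter on low values the limma adjusted p was 0.00029, in a range of 9.2e-08 to 0.0005 over its alternatives. ENSGALG00000008298 stood in chicken at 50.6 to 146 TPM in the scale placodes and at 2.14 and 0.0663 TPM in claw. In emu it stood at 81 and 39.4 TPM in claw, above the 3.97 to 22.1 TPM of the scale libraries. The birds differed by -7.39 (SE 0.91, limma adjusted p = 0.00094). In chicken only 1 claw library reached 1 TPM of ENSGALG00000008298, so there it passed the filter only through the scales, where it was high. The call was kept with no filter on low values. Which chicken gene an emu value was matched to could not be checked here, and copies within a gene family could be matched differently.

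**Figure D4:**
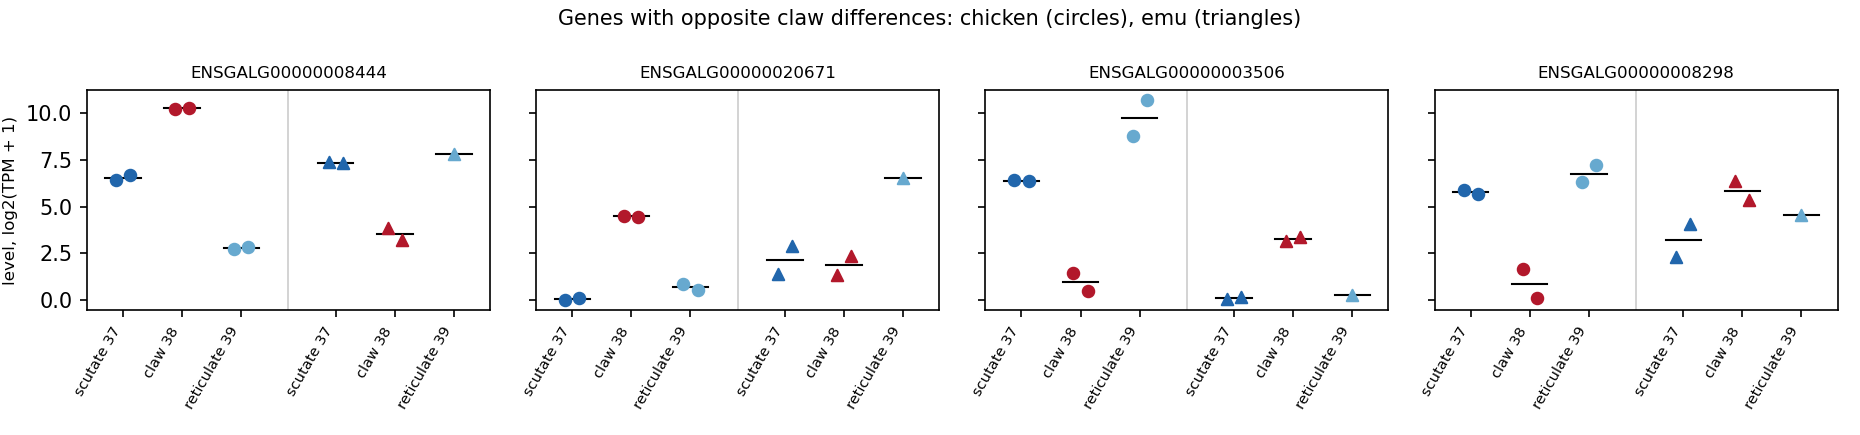
Level in log2(TPM + 1), vertical axis, of 4 genes whose claw difference had opposite signs in the birds, in scutate placode (37), claw (38) and reticulate placode (39). Circles are chicken libraries, triangles emu libraries and lines group means. In ENSGALG00000008444 claw is highest in chicken, at 1183 and 1245 TPM, and lowest in emu, at 13.7 and 8.33 TPM.

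Much of the chicken claw RNA came from genes with no emu value, at 52.7% and 53% of all TPM against 43.4% to 46.1% in chicken scales. Of the 11872 chicken genes that passed the filter, 4961 had no emu value. Of the 20 chicken genes that gained most TPM from scales to claw, 17 had none. Their claw means ran from 3026 to 16412 TPM over the 20, and 12 of them were under 100 TPM in all 4 chicken scale libraries. Together they gained 121944 TPM, or 12.2% of the library total. The corresponding 20 genes of emu gained 42796 TPM, or 7.78% of a total that covers only the genes with an emu value, so these percentages have unlike bases. Both lists held 1 gene in common, but the 17 chicken genes without an emu value could not be in the emu list. Fitted over all 11872 chicken genes that passed the filter, 1785 were higher in claw (15%) and 6019 lower (50.7%), or 3292 and 2891 after median-of-ratios rescaling. The 1785 became 1106 and 1118 without chicken claw replicate 1 or replicate 2. A claw excess of 16-fold or more was called for 71 of 4961 genes without an emu value (1.43%) and for 48 of 6911 genes with one (0.695%). This comparison was added after the values had been seen.

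ENSGALG00000024133 led the chicken genes without an emu value, the only ones ranked here. It reached 14737 and 18087 TPM in claw, while the scutate libraries held 0 and 3.16 TPM and the reticulate libraries 14.6 and 2.66 TPM. The log2(TPM + 1) difference was 12.02 (SE 0.83, limma adjusted p = 0.00041). ENSGALG00000013668 reached 7760 and 4904 TPM in claw and was listed at 0 in 3 of the 4 scale libraries, with 4.6 TPM in the other. On the same scale its difference was 11.97 (SE 0.67, limma adjusted p = 0.00011). It reached 1 TPM in both claw libraries and in 1 scale library, so it passed the filter of 2 libraries only through claw. Its call, too, was kept with no filter on low values. Counting may have split reads among near-identical copies of these genes, if they have any, since the table does not say how shared reads were treated.

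On the low side, again among genes without an emu value only, ENSGALG00000011663 led. It held 0.946 and 0.693 TPM in chicken claw, against 407 and 262 TPM in scutate and 451 and 561 TPM in reticulate placodes. The claw libraries lay far below every scale library, by a log2 difference of -7.81 (SE 0.20, limma adjusted p = 3.8e-06). This gene reached 1 TPM in scale libraries alone, so it entered the test only through the groups where it was high. Its call was kept with no filter on low values. ENSGALG00000013587 fell from 2230 and 1431 TPM in scutate and 2500 and 3932 TPM in reticulate placodes to 10.7 and 11.6 TPM in claw (log2 difference -7.61, SE 0.24, limma adjusted p = 1.3e-05). Both have an alligator value. In alligator claw ENSGALG00000011663 stood at 4.73 and 10.8 TPM at placode and at 0.766 and 1.29 TPM at morphogenesis, below the 14.3 to 66 TPM of the alligator scale libraries. ENSGALG00000013587 stood in alligator claw at 60.2 and 159.5 TPM at placode and at 8.36 and 5.77 TPM at morphogenesis. Alligator scales held 410.1 to 3242 TPM of it at placode and 21.3 to 272 TPM at morphogenesis. Claw was thus below the scales of its own developmental step, but claw placode was above femoral scale at morphogenesis.

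Bird libraries outside the comparison allowed a reading with the developmental steps reversed. Claw placode at stage 36 was set against scutate and reticulate scale at morphogenesis at stage 40, after median-of-ratios rescaling and without a test. Of the 694 genes higher in growing claw, 470 (67.7%) were above the later scales in claw placode of both birds, against 30.3% of all genes tested. Their median difference was 0.41 in chicken and 0.48 in emu. Of the 1295 lower genes, 809 (62.5%) were below in both birds, against 31.1%, with medians of -0.28 and -0.30. Emu claw placode is 1 library, so these are values and not tests. By the sample descriptions, emu claw placode names the same lane as 1 of the growing claw libraries. The later emu scutate and reticulate scales name the lanes of their placodes. Lane and appendage therefore cannot be told apart in the emu part of this reading.

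Claw placode was also where the higher genes peaked most often among 7 other epidermis groups of each bird. It was the highest group in both birds for 40.2% of them, against 10.1% of all genes. The lower genes had their lowest level in claw placode in both birds for 32.2%, against 10.3%. They peaked in a feather group in both birds for 50.5%, against 26.8% of all genes and 2.74% of the higher genes. The 7 groups were claw placode, dorsal and femoral feather at both steps and both scales at morphogenesis, without the scale placodes. Against the scale placodes, the mean of the feather groups was at least 2-fold higher in both birds for 0.849% of the lower genes. Over all genes that share was 0.706%.

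The leading genes differed among themselves in these libraries. ENSGALG00000024272 stood at 346 TPM in emu claw placode and at 5.95 and 40.7 TPM in chicken claw placode, so its level at stage 36 lay below that of growing claw. ENSGALG00000004804 stood at 138 TPM in emu and at 0.816 and 22.1 TPM in chicken claw placode. ENSGALG00000010898 was as low in claw placode, at 0.0334 and 0.0312 TPM in chicken and 0 in emu, as in growing claw. In emu feathers it held 19.7 to 35.1 TPM, and in chicken feathers 23.9 to 33.1 TPM at placode and 2.61 to 3.45 TPM at morphogenesis. ENSGALG00000010657 stood at 229 to 627 TPM in emu feathers but at 12.8 to 48.1 TPM in chicken feathers. Among the genes that differ between the birds, ENSGALG00000008444 was high in chicken claw placode as well, at 1588 and 3595 TPM, and low in emu claw placode, at 26.4 TPM.

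**Figure D5:**
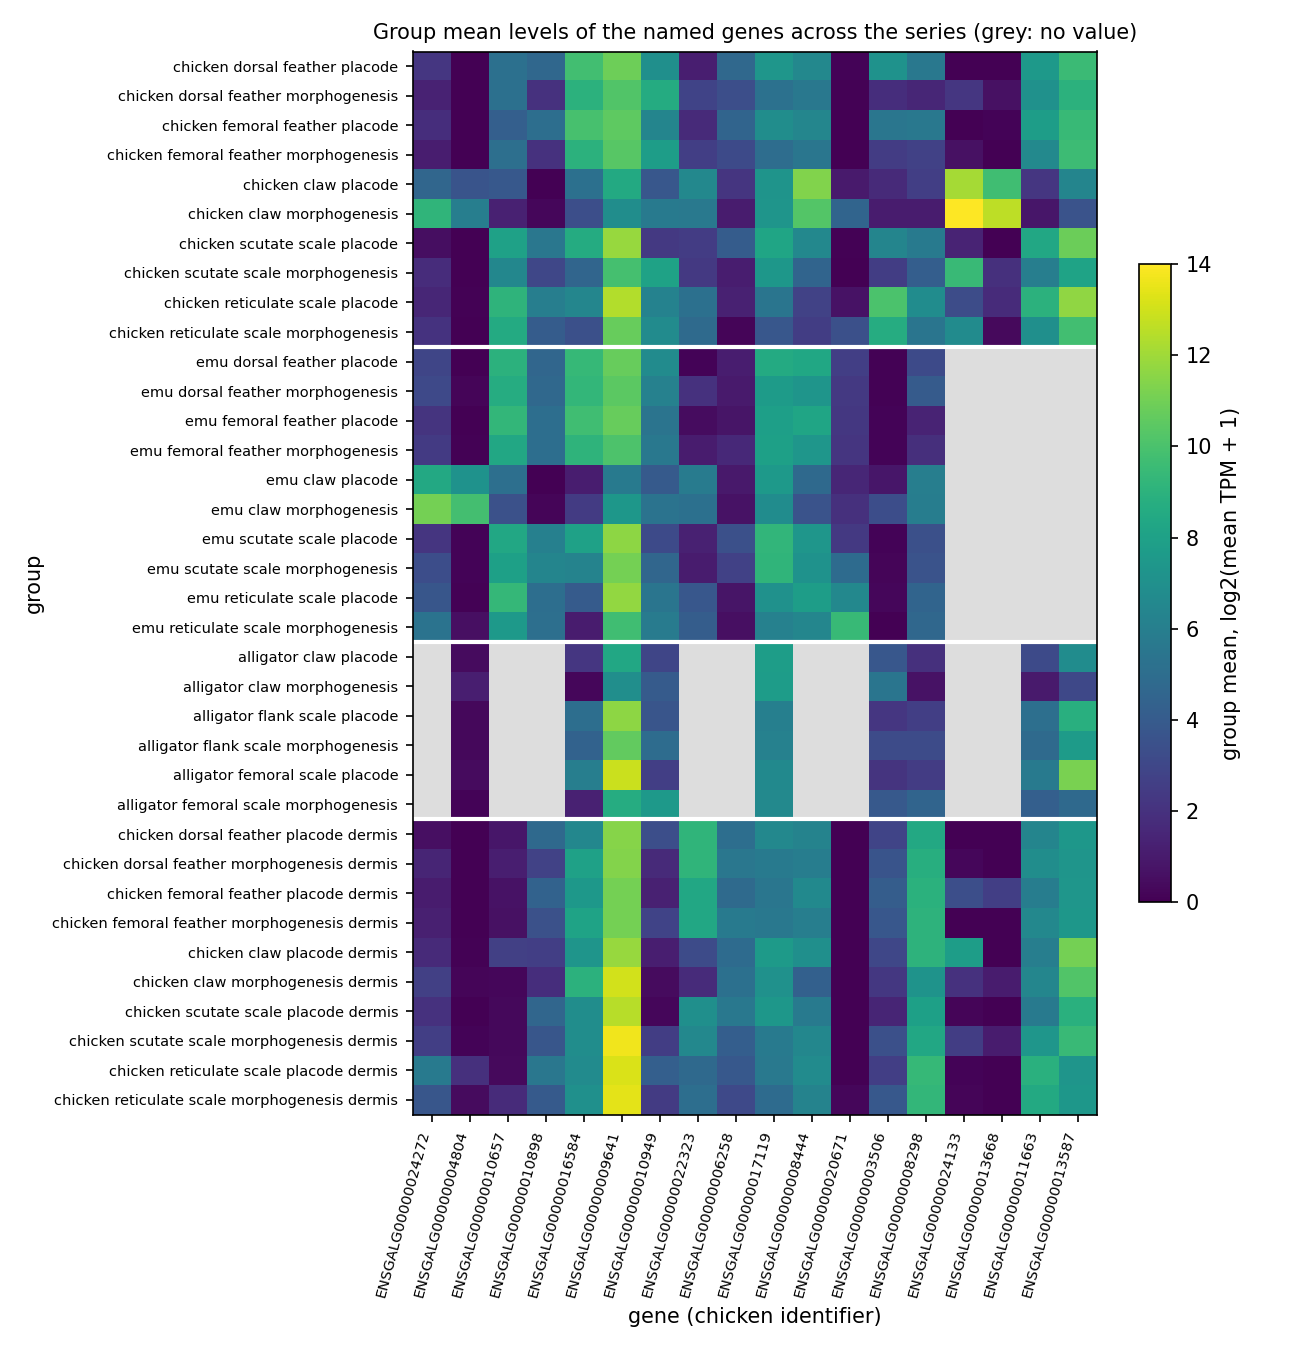
Mean level of the named genes, as log2(mean TPM + 1) in colour, in the 36 groups of the series in rows, with genes in columns and grey where a species has no value. The first 2 genes are brightest in growing claw of both birds and dimmer in claw placode.

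Alligator claw, from libraries that called none of these genes, was compared with alligator flank and femoral scales over both stages with limma after median-of-ratios rescaling. By the sample descriptions alligator claw was sequenced on lanes 1 and 2, femoral scale on lane 3 and flank scale on lane 7, which means that an effect of lane and one of appendage cannot be told apart. By the labels, placode and morphogenesis were at stages 21 and 22 in claw, 22 and 23 in flank scale, and 21 and 23 to 24 in femoral scale. Claw at morphogenesis was thus younger than both scales, and age and appendage cannot be told apart there either. Of the 487 genes higher in bird claw under all 3 scalings and tested in alligator, 327 (67.1%) were called higher in alligator claw and 70 (14.4%) lower. Over all 4489 genes tested in both, 37.3% were called higher and 35.6% lower, and over the 7811 tested in alligator 37.4% and 36.6%. Of the 909 genes lower in bird claw, 556 (61.2%) were called lower in alligator claw and 131 (14.4%) higher. As deposited, where 72.9% of the alligator genes were called, ENSGALG00000016584 was lower in alligator claw by a log2 difference of -2.99 (SE 0.38, limma adjusted p = 7.1e-05), and ENSGALG00000009641 by -3.31 (SE 0.21, limma adjusted p = 7.7e-07). Others had the opposite sign to that of bird claw against scutate placode. ENSGALG00000010949, above scutate placode in bird claw by 2.93, was lower in alligator claw by a log2 value of -1.23 (SE 0.17, limma adjusted p = 7.5e-05). ENSGALG00000017119, below scutate placode in bird claw by a log2 value of -1.71, was higher in alligator claw by 1.39 (SE 0.13, limma adjusted p = 2.3e-06). Against reticulate placode the bird claw values of these genes were -0.50 and 0.92, with the signs of alligator claw. Neither was called there (limma adjusted p = 0.53 and 0.11) or against the mean of the scales (limma adjusted p = 0.061 and 0.36). Of the genes with opposite signs in the birds, ENSGALG00000003506 was higher in alligator claw, by 1.73, and ENSGALG00000008298 lower, by -1.82 (limma adjusted p = 1.7e-06 and 8e-04). ENSGALG00000004804 was highest among the alligator groups in growing claw, at 0.789 and 1.68 TPM, against at most 0.359 TPM in the scale libraries. ENSGALG00000024272, ENSGALG00000010657 and ENSGALG00000010898 have no alligator value in the table used here.

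Lanes, claw replicates and dermis genes were set beside these results. In emu, claw replicate 2 and the reticulate library both name lane 1. Between these 2 libraries alone 684 of the 694 higher genes were higher in claw (98.6%, against 49.8% of all genes), and 1261 of the 1295 lower genes were lower (97.4%, against 50.2%), though both libraries had also helped to call them. Emu claw replicate 1 names lane 8 and the emu scutate libraries lane 2, so no emu claw library shares a lane with scutate placode. Lane and replicate cannot be told apart in emu claw. Claw replicate 1 there lay nearer the scales than replicate 2. It was above replicate 2 in 66.7% of the 1295 lower genes and below it in 66.4% of the 694 higher genes, while over all genes it was above in 49.5%. In chicken these shares were 47.7% and 53.9%.

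Genes 4-fold or more enriched in chicken dermis over epidermis, taken from the 7 classes outside the comparison, took 0.805% and 1.05% of the TPM in chicken claw and 0.548% to 0.764% in chicken scales. In emu the shares were 2.67% and 3.09% in claw and 2.41% to 3.59% in scales. With the list taken from all 10 classes, which use the same chicken scale and claw libraries, the order was reversed, at 0.552% and 0.794% in chicken claw and 1.17% to 1.72% in scales. In emu, whose libraries did not make either list, the list of 10 classes took 2.32% and 1.69% in claw. Emu scales held 2.92% to 4.07% of it, so claw was lower there too. Of the 285 dermis-enriched genes tested, 50 (17.5%) were higher and 66 (23.2%) lower in claw, or 23.9% and 16.1% after median-of-ratios rescaling. Over all genes tested the shares were 11.2% and 47%, or 24.6% and 23.1% after rescaling. Of the epidermis-enriched genes, 209 were tested, with 63 (30.1%) higher and 63 (30.1%) lower, or 44.5% and 18.2% after rescaling. Epidermis-enriched genes took a larger share in claw with either list, at 5.96% to 7.85% in claw of both birds against 3.7% to 5.28% in scales with the list of 7 classes. The part of dermis carried into the libraries in any result was not tested.

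In chicken dermis, with 1 library for each group and no replicate, claw at stage 38 could be set against the dermis of the same scale placodes. Each of these dermis libraries carries the specimen number of an epidermis library of the same appendage and stage that helped to call the genes. The layers may thus share embryos, and the dermis values are not shown to be independent of those calls. Of the 694 genes higher in claw epidermis, 82 (11.8%) were at least 2-fold higher in claw dermis, against 5.32% of all genes tested, and 4.18% were at least 2-fold lower, against 4.28%. Of the 1295 lower genes, 83 (6.41%) were at least 2-fold lower and 4.17% at least 2-fold higher. The median log2 difference in dermis was 0.09 for the higher genes, -0.10 for the lower genes and -0.04 for all genes. ENSGALG00000024272 stood at 5.31 TPM in claw dermis and at 3 and 52.4 TPM in scutate and reticulate placode dermis, which is not its order in epidermis.

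Several genes that were low in claw epidermis were abundant in dermis. ENSGALG00000009641 held 2159 to 13202 TPM in the 10 chicken dermis libraries, with 8429 TPM in claw dermis at stage 38, where claw epidermis held 183 and 49.9 TPM. ENSGALG00000016584 held 510.5 TPM in claw dermis, its highest dermis value, and 89.7 to 275 TPM in the others. ENSGALG00000008298 held 147 to 667 TPM in dermis, with claw at stage 38 the lowest. In contrast ENSGALG00000010657 reached at most 5.25 TPM in any dermis library, against 251 to 683 TPM in chicken scale placode epidermis. ENSGALG00000010898 was low in claw in both layers, with 5.08 and 2.55 TPM in claw dermis and 5.91 to 46 TPM in the other dermis libraries.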

How the data were processed

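RNA of the epidermis was measured by sequencing of strand-specific libraries from polyadenylated RNA, per the labels' protocols. The authors deposited TPM values in 1 table of 17889 genes by 60 libraries. CASAVA, TopHat2 2.0.6 and HTSeq 0.5.3p9 are named, with no role or order, per the submitters' processing notes, while no source used here gives a genome build or annotation. Emu and alligator columns are marked as scaled per the file headers and have near-constant totals over their genes, by a step that is not described. Levels were therefore compared within a species and differences between species. Since TPM holds no depth, intervals for counting error were not computed, and 0 means only that a gene is listed so.

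The labels gave the groups. The design text calls replicates biological, with no more on how embryos were sampled, and p-values therefore measure the spread between these libraries. Values as log2(TPM + 1) were fitted in R 4.3.3 by limma 3.58.1 with species and appendage terms, followed by eBayes (trend, robust) and Benjamini-Hochberg adjustment at 0.05. Genes at 1 TPM or more in fewer than 2 libraries of either bird were left out. The difference between the birds was a contrast in a fit with a mean for each bird and appendage. The fits were tested on simulated data. The alternatives were other pseudocounts, filters, scalings (median-of-ratios, quantile), shrinkage, weights and fits, each bird alone, and each library left out. One total for chicken over genes with an emu value, the comparison over all chicken genes, calls shared by 3 scalings and layer lists from 7 classes were added after seeing the data.

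The comparison and the lists were chosen with earlier results of these data known. Of the 17889 identifiers 0 matched the reference table, so 25 gene lists by symbol were not applied. Genes named are the first 2 each way by log2 difference among called genes with the same sign in each bird. Against both scales they also lay on the same side of each scale. For the difference between birds they had opposite signs instead. For the fit over all chicken genes, only called genes without an emu value that lay on the same side of each scale were ranked. The 6 genes most abundant in claw, among those with an emu value, were added and are given by rank.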

Additional observations from a re-analysis of the deposited data

Results flagged for a closer look

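Results are listed here where the claw difference itself differed between chicken and emu, by the contrast of the birds in the fit with a mean for each bird and appendage. That contrast passed the adjusted threshold in 2209 of 6372 genes (34.7%). Among the genes that led the other comparisons, ENSGALG00000004804 had a smaller claw excess in chicken than in emu, by a log2 value of -3.79. Its scale libraries were all under 1 TPM, so this value depends on the undescribed emu scaling and the added 1. ENSGALG00000017119 had a larger claw difference in chicken, by 1.92. Of the genes with opposite claw differences, ENSGALG00000008444 (9.61) and ENSGALG00000020671 (6.59) were higher in claw in chicken and lower in emu. For ENSGALG00000020671 the emu side rests on the 1 reticulate library, since emu claw overlapped scutate placode. ENSGALG00000003506 (-10.18) and ENSGALG00000008298 (-7.39) went the other way round. The values of these genes by library stand with the comparison of the birds. No sample group held 4 or more libraries, so single libraries far from their group were not looked for.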

How the results depend on the processing

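Beside the values given as deposited, median-of-ratios rescaling gave 1568 genes higher and 1474 lower in claw than both scales on average, 1063 higher and 880 lower beyond each scale, and 3292 higher and 2891 lower over all chicken genes. Quantile normalization gave 1241 and 1604, 782 and 954, and 3601 lower over all chicken genes. Cell means gave 725 genes higher beyond each scale, and cell means over all 38 bird epidermis libraries gave 821, and 1143 higher than the scales on average. Emu alone gave 1349 genes lower beyond each scale. The 37 genes between reticulate and scutate placode became 585 with cell means, 1054 with cell means over all bird epidermis, 317 in chicken alone and 212 in emu alone, and 3 to 86 when libraries were left out in turn. Leaving out chicken claw libraries in turn took the 1785 genes higher over all chicken genes to 1106 without replicate 1 and 1118 without replicate 2, and leaving out each library gave 1106 to 1747. The causes of these moves were not tested. With each library left out in turn the claw difference from both scales was called in 3111 to 3624 genes and claw beyond each scale in 2105 to 2607. The difference between the birds was called in 1557 to 2141 genes, and it could not be fitted without the emu reticulate library. Of 482 alternative values of single genes, 452 kept their direction and side of the threshold, 30 kept their direction but not the call, and 0 reversed. Of the 30, 29 concerned ENSGALG00000010949, ENSGALG00000017119 and ENSGALG00000022323 between the scales. Some named genes did not pass the filter in each leave-one-out fit, namely ENSGALG00000004804 without any 1 of the claw libraries, ENSGALG00000020671 without a chicken claw library, ENSGALG00000003506 without an emu claw library and ENSGALG00000006258 without an emu scutate library. No paired analysis was possible because the labels give no link among the epidermis libraries compared. Those libraries carry separate specimen numbers, which need not name embryos, and their replicate numbers only name them. Emu reticulate placode is 1 library and is assumed to vary like the other groups. Genes without an emu value rest on chicken alone, and depth is unknown.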
